A study of Rattus norvegicus with 6 samples.

Results

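The genes of bone morphogenetic protein (BMP), transforming growth factor beta (TGF-beta) and Smad signalling were followed in polyA RNA-seq of neural progenitors of the rat. Members were chosen by name from the gene tables: TGF-beta genes and receptors, numbered Bmp and Gdf genes, BMP and activin receptors, Smad genes, the beta subunits of inhibin and activin, and secreted antagonists such as Nog, Chrd and Fst. This gave 53 genes of the 17337 gene names in the tables. The progenitors came from the cortex of Sprague Dawley embryos of either sex at embryonic day 14, and were plated on CELLstart, grown in StemPro supplement with bFGF and EGF, and collected after the second passage. All samples are of this single untreated state, with no other genotype, agent or time, as 2 biological replicates, each sequenced as 2 technical libraries. Replicate A holds libraries A1 and A2 and replicate B holds B1 and B2, and values are given in that order. The 2 Start-seq samples of the study were not analysed here. No group was compared with another, so values are described with their spread and no p-value is given.

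BMPs, TGF-betas and activins are secreted dimers that bind a pair of type II and a pair of type I receptors at the cell surface. The type II receptor phosphorylates the type I receptor, which in turn phosphorylates receptor-regulated Smads: Smad1, Smad5 and Smad9 below BMP receptors, and Smad2 and Smad3 below TGF-beta and activin receptors. These join Smad4 and act in the nucleus, while Smad6 and Smad7 inhibit the pathway and secreted antagonists such as noggin hold ligands away from their receptors. In the developing cortex, BMPs from the dorsal midline and the meninges pattern the tissue, and BMP and activin signals bear on the choice of progenitors between neurons and astrocytes.

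Levels are given as FPKM, fragments scaled to transcript length and library depth, which allows genes of different length to be set side by side. A mean of 1 FPKM or more over the 2 replicates was found for 36 of the 53 genes (67.9%), beside 60.5% of all gene names. The median member lay at 5.27 FPKM and the median gene name at 3.83. The members covered every step of the pathway, with TGF-beta, activin, GDF and BMP ligands, type I and type II receptors, both classes of receptor-regulated Smad, Smad4, both inhibitory Smads and Nog, Chrd and Fst each above this level.

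Library B2 stood apart from the others. Its coverage per FPKM was 6.83, beside 22.7 to 24.4 in the other 3 libraries, so it held about 28.1% of the depth of B1, and the table from which it came carries an identifier of another form than theirs. B2 was placed in replicate B by its sample label, and whether it came from the same cells as B1 was not tested, so the means and SDs that include B rest on that label. Of the 10481 gene names that reached 1 FPKM, 2.8% lay 1 or more apart on the log2(FPKM + 1) scale between the libraries of B, and 0.153% between those of A. Among the members these were Bmp6, Nog and Tgfbr3 in B (3 of 36) and none in A (0 of 36). B2 lay above B1 in 26 of the 36 members and in 5149 of the 10481 gene names. Member values are therefore given for each library.

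A difference between the replicates was counted where the mean log2(FPKM + 1) of B and A differed by 1 or more (2-fold) and the libraries of A did not overlap those of B, among genes that reached a mean of 1 FPKM. By this rule 8 of the 36 members differed, where the background over all gene names was 6.15% (645 of 10481). Higher in B were Bmp7, Bmp4, Bmp6, Bmp2, Tgfbr2, Tgfbr3 and Smad6 (7 members, background 4.58%). Without B2 the count was 6 members, of which 5 were higher in B, and Bmp6 and Tgfbr3 were lost, while over all gene names it was 573. In bulk RNA, more cells of a type and more RNA of a gene per cell cannot be told apart. Gdf15 was the single member higher in A (1 of 36, background 1.57%). Libraries of A and B did not overlap, whatever the size of the difference, for 27 members (16 higher in B and 11 higher in A) and for 60.1% of all gene names. The median difference of B from A was 0.12 on the log2 scale over the members and -0.034 over all gene names.

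**Figure D1:**
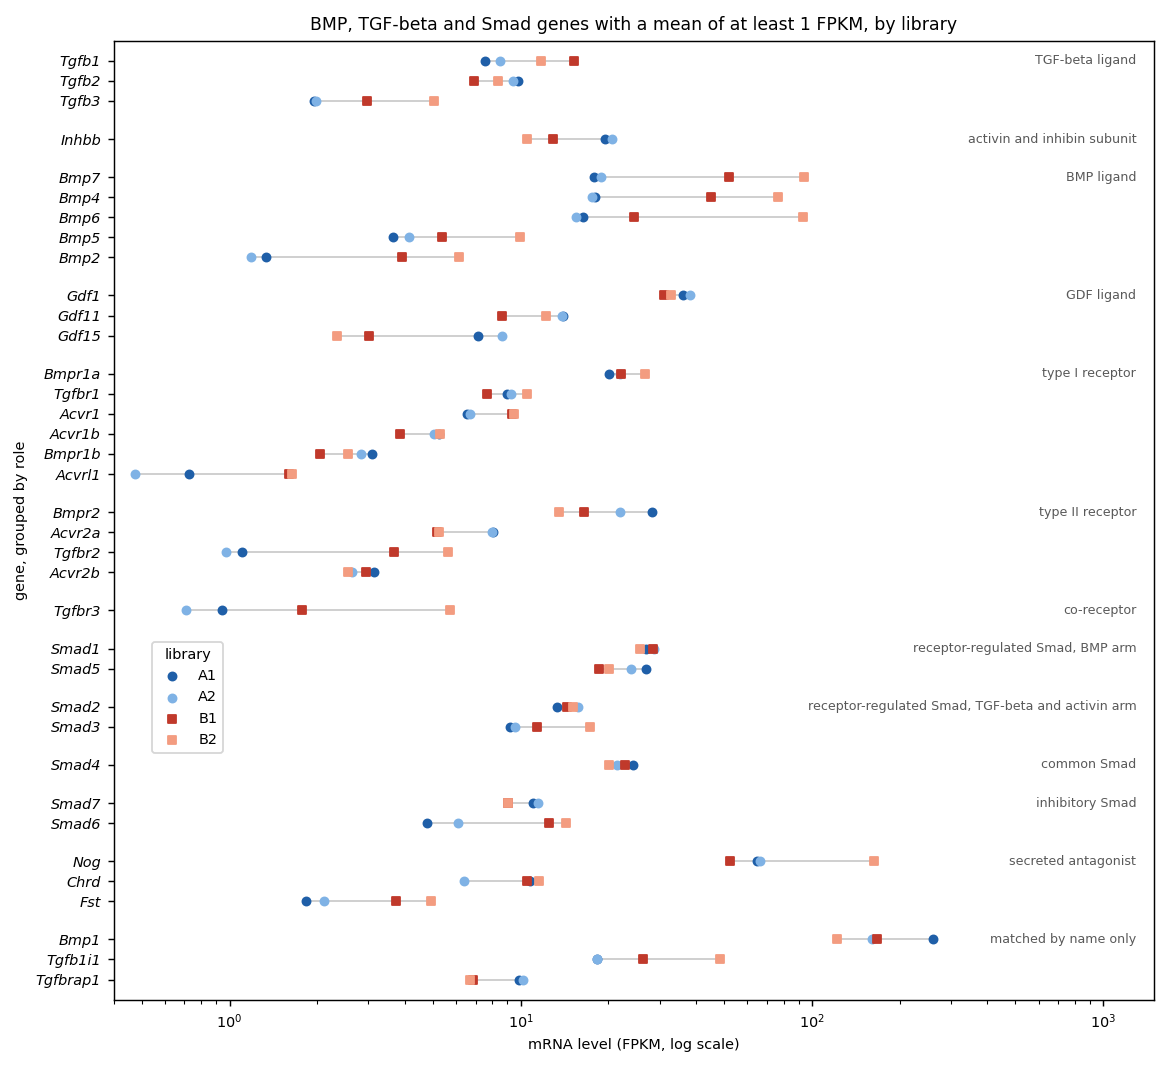
FPKM of each of the 36 members above 1 FPKM (log axis), grouped by role, in libraries A1 and A2 (circles, replicate A) and B1 and B2 (squares, replicate B); grey lines join the lowest and highest library. The BMP ligands spread to the right in B1 and B2, whereas Smad1, Smad2 and Smad4 lie close together in all 4 libraries.

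Among roles with more than 1 gene, the BMP ligands had the largest ratio of summed level between the replicates. Bmp7, Bmp4 and Bmp6 were the most abundant of the 9 BMP ligand genes, and with Bmp2 they were all counted as higher in B (4 of 5 above 1 FPKM, background 4.58%). Without B2 this was 3, and the count higher in B over all gene names was 385 in place of 480. Summed over the 9 genes the level was 57.5 FPKM in both libraries of A and 131 and 282 in B, so that the mean of B was 3.59 times that of A. Both B libraries lay above both A libraries, and B2 lay far above B1. The summed level of 12 mesenchymal and meningeal markers was also higher in B, at 2621 and 3751 FPKM beside 754 and 734 in A, and its part in the ligand levels was not tested.

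Bmp7, a ligand of the dorsal midline, meninges and kidney, is encoded at chr3:170879972-170955820 on the minus strand (rn6). It gave 17.9 and 18.9 FPKM in A and 51.9 and 93.9 in B (45.6 ± 38.6, mean and SD of n = 2 replicates), with B higher by 1.87 on the log2 scale. Bmp4, which patterns the dorsal telencephalon and drives progenitors towards the astrocyte fate, lies at chr15:20776216-20779802 on the minus strand. Its levels were 18.1, 17.5, 45.0 and 76.5 FPKM in the same order (39.3 ± 30.4), a difference of 1.67. For both genes the 2 libraries of A were nearly equal, and B1 alone was already more than 1 above A on the log2 scale, at 1.45 for Bmp7 and 1.29 for Bmp4.

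Bmp6, a ligand close to Bmp7 in sequence and encoded at chr17:26955142-27112820 on the minus strand, had 16.3 and 15.5 FPKM in A and 24.4 and 93.3 in B. The difference of B from A was 1.53 with both libraries of B and 0.59 without B2, so the count of Bmp6 among the differing genes rests on B2. The ranges of Bmp7, Bmp4 and Bmp6 overlapped, and neither Bmp7 and Bmp4 nor Bmp4 and Bmp6 kept 1 order in every library, while Bmp7 exceeded Bmp6 in all 4. Each of them lay above Bmp5 in every library, without overlap between Bmp6 and Bmp5.

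Bmp2, the ligand most like Bmp4, was much lower. It measured 1.34 and 1.19 FPKM in A and 3.90 and 6.15 in B (3.15 ± 2.66), with B 1.39 higher on the log2 scale. Bmp5, of the same subfamily as Bmp6 and Bmp7, was at 3.64, 4.13, 5.35 and 9.94 FPKM and differed by 0.77, which missed the threshold. The ranges of Bmp5 and Bmp2 overlapped, although Bmp5 was the higher in every library. The remaining 4 BMP ligand genes had a mean under 1 FPKM: Bmp3, with 0.19 and 0.18 FPKM in A and 0.55 and 1.38 in B, Bmp15, Bmp8a and Bmp10, the last of which was listed at 0 in all libraries.

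The secreted antagonists were led by Nog, which encodes noggin, a protein that binds BMP2 and BMP4 with high affinity and BMP7 with lower affinity. It lies at chr10:76811759-76813386 on the minus strand. Its levels were 64.7 and 66.3 FPKM in A and 52.4 and 163 in B (86.7 ± 30.0), so that B1 lay below both libraries of A and B2 far above them. The replicates overlapped and the difference of 0.49 was not counted, whereas it was 1.31 with B2 alone standing for B and -0.32 with B1 alone. Nog exceeded Chrd, and Chrd exceeded Fst, in every library and with no overlap of their ranges.

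Chrd, for chordin, which binds BMPs until a protease cuts it, gave 10.8, 6.40, 10.5 and 11.6 FPKM. Fst, for follistatin, which binds activins, gave 1.83, 2.11, 3.73 and 4.92 FPKM, with both libraries of B above those of A and a difference of 0.83. Grem1, a further BMP antagonist, had a mean of 0.40 FPKM. The ratio of Bmp2, Bmp4, Bmp5, Bmp6 and Bmp7 together to Nog was 0.89 and 0.86 in A and 2.49 and 1.71 in B. Summed ligand mRNA was thus below Nog mRNA in both libraries of A and above it in both libraries of B, as a statement on FPKM and not on protein.

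**Figure D2:**
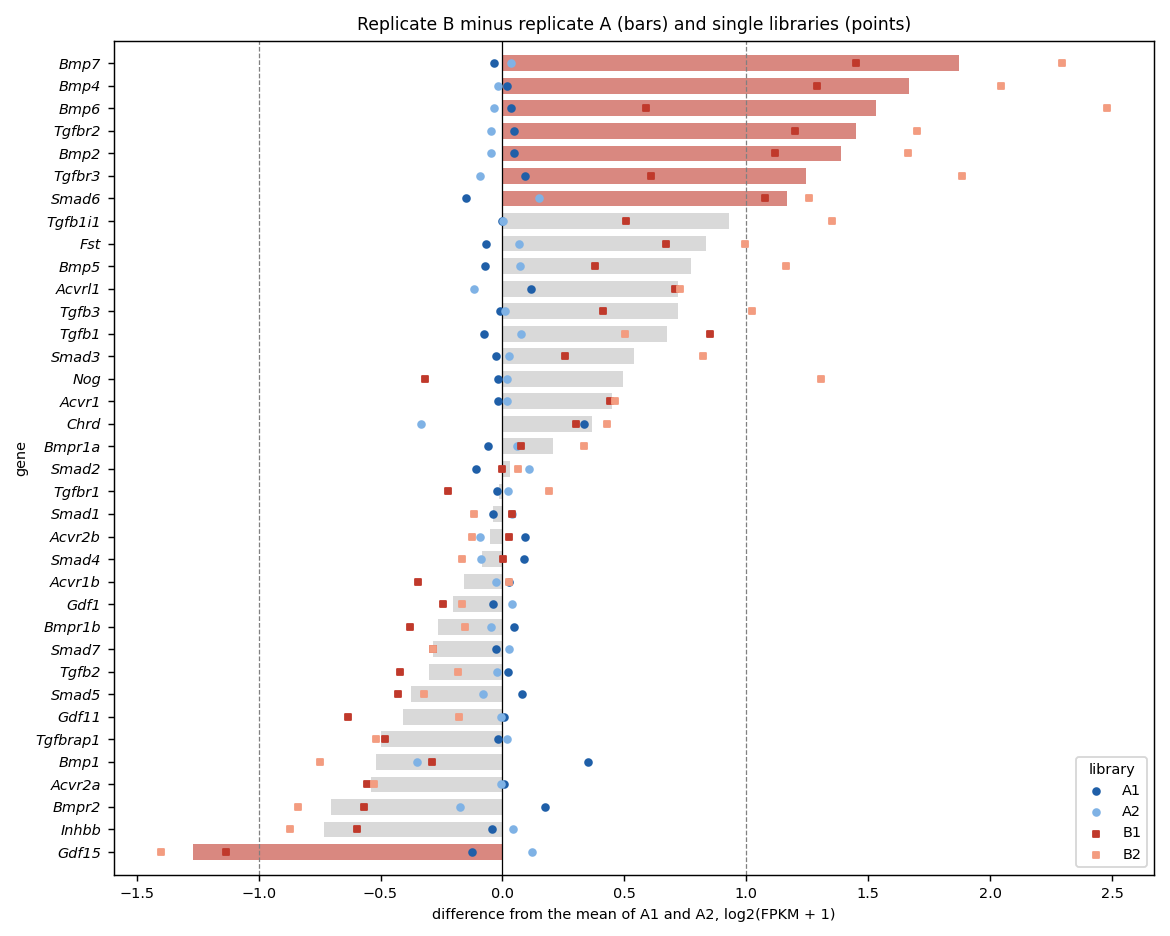
Difference of replicate B from replicate A in log2(FPKM + 1) for the 36 members above 1 FPKM (bars; red where counted as differing), with each library drawn as a point relative to the mean of A1 and A2; dashed lines mark a difference of 1. The points of B1 and B2 lie beyond the line for Bmp7, Bmp4, Bmp2, Tgfbr2, Smad6 and Gdf15, and for Bmp6 and Tgfbr3 only the point of B2 does. Among members not counted, the B2 points of Nog, Tgfb1i1, Bmp5 and Tgfb3 also lie beyond it.

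Sequences before the annotated start sites of a few members are shown to set 2 ligands that were higher in B beside an antagonist and an inhibitory Smad. They are RefSeq sequences of GRCr8, a later build than the rn6 of the tables, and are the 250 bases before the start, 5′ to 3′ on the strand of the gene. Capitals mark matches, on either strand, to CAGAC (the Smad box), GGCGCC (a palindrome bound by BMP Smads) and TATAAA (the TATA box), and in the stretches printed no match overlaps another. Bmp4 (chr15:22101934-22102183, minus strand) and Bmp6 (chr17:26675262-26675511, minus strand) are ligands higher in B, Nog (chr10:74627502-74627751, minus strand) is the most abundant antagonist among the members and Smad7 (chr18:71263258-71263507, plus strand) is an inhibitory Smad known as a target of the pathway.
Bmp4: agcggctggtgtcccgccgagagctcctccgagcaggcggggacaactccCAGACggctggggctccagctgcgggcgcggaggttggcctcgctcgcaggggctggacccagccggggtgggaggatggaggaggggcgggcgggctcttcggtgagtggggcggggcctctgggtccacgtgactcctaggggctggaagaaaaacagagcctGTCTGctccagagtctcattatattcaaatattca
Bmp6: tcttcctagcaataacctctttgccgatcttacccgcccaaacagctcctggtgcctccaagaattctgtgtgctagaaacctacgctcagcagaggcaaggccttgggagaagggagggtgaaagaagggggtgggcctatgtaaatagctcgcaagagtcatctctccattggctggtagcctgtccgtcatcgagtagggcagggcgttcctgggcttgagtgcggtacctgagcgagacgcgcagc
Nog: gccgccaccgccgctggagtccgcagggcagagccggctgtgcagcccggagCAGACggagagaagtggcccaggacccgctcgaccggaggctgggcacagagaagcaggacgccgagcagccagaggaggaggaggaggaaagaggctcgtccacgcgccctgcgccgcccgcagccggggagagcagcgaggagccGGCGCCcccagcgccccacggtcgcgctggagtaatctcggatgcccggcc
Smad7: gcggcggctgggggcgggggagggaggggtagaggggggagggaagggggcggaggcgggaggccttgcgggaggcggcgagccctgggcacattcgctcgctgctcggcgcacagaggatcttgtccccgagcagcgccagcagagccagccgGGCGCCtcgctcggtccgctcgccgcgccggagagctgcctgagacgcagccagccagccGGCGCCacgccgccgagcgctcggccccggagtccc

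These stretches were rich in G and C, at 66.4% in Bmp4, 56.4% in Bmp6, 74.0% in Nog and 78.0% in Smad7, beside a median of 51.2% over 33469 gene starts. Bmp4 held 2 matches to CAGAC, Nog held 1 match to CAGAC and 1 to GGCGCC, Smad7 held 2 matches to GGCGCC, and Bmp6 held none of the 3 motifs. A start was on file for 42 of the 53 members, of which 26.2% held GGCGCC and 26.2% held CAGAC, beside 8.7% and 42.9% of all starts. TATAAA was held by 11.9% of the members and 12.9% of all starts. The median share of G and C over these 42 members was 64.8%, and its part in these shares was not tested. Among the members with no start on file were Bmp7, Bmp2, Smad6, Acvr1, Bmpr1b, Acvrl1, Fst, Gdf6, Gdf3 and Bmp1. The matches are letters only, and no binding was measured.

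The TGF-beta ligands were lower than the leading BMPs and closer between the replicates. Tgfb1 gave 7.53 and 8.50 FPKM in A and 15.3 and 11.7 in B. Tgfb2, a form made in the embryonic nervous system, gave 9.75, 9.44, 6.91 and 8.34 FPKM. Tgfb3 was the lowest, at 1.95, 1.99, 2.96 and 5.03 FPKM. The libraries of A and B did not overlap for any of the 3 genes, as for 60.1% of all gene names, with Tgfb1 and Tgfb3 on the side of B (0.68 and 0.72 on the log2 scale) and Tgfb2 on the side of A (-0.30), and none reached the 2-fold threshold. Tgfb1 and Tgfb2 changed places between the replicates, and both exceeded Tgfb3 in every library.

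Among the beta subunits of activin and inhibin, nearly all mRNA was Inhbb, the beta B subunit. It measured 19.4 and 20.6 FPKM in A and 12.9 and 10.5 in B (15.9 ± 5.9), lower in B by 0.73 on the log2 scale and not counted. Inhba, the beta A subunit, had a mean of 0.15 FPKM, Inhbe of 0.016, and Inhbc was listed at 0 throughout.

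Among the GDF ligands Gdf1 was the most abundant, at 36.0, 38.0, 31.1 and 32.9 FPKM. Gdf1 encodes a ligand of early left-right patterning and shares its locus and strand with Cers1, a ceramide synthase gene, so that the reads of the 2 genes cannot be told apart with certainty. Gdf11, a ligand that restrains neuron production in parts of the nervous system, gave 14.0, 13.9, 8.63 and 12.2 FPKM, with both libraries of A above those of B. Gdf15, a cytokine made by stressed cells, was at 7.11 and 8.61 FPKM in A and 3.02 and 2.34 in B (5.27 ± 3.66), lower in B by 1.27 on the log2 scale. The ranges of Gdf1, Gdf11 and Gdf15 did not overlap. Of the other 6 GDF genes Gdf10, Gdf9, Gdf7 and Gdf6 had means between 0.0063 and 0.40 FPKM, and Gdf2 and Gdf3 were listed at 0 in all libraries.

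The summed levels of the receptors were closer between the replicates than that of the BMP ligands. Type I receptors summed to 44.7, 46.2, 46.6 and 56.2 FPKM in A1, A2, B1 and B2 and type II receptors to 40.5, 33.6, 28.2 and 26.9, with B above A by 1.13 times for the former and at 0.74 times A for the latter. Of the 10 type I and type II receptor genes that reached 1 FPKM, only Tgfbr2 was counted as differing, which is 1 of 10 beside a background of 6.15% and is no result about the receptors as a group.

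Bmpr1a, a type I receptor for BMP2 and BMP4, had the highest mean of the receptors at 20.1, 21.9, 22.1 and 26.7 FPKM, although Bmpr2 exceeded it in both libraries of A. It lay above Tgfbr1 in every library with no overlap. Tgfbr1, the type I receptor for TGF-beta, gave 8.94, 9.26, 7.66 and 10.5 FPKM, so that A lay within the range of B. Acvr1, which serves BMP6 and BMP7, gave 6.55 and 6.72 FPKM in A and 9.35 and 9.51 in B, and its order with Tgfbr1 was not fixed. Acvr1b, the activin receptor, and Bmpr1b, the second BMP type I receptor of neural progenitors, followed at 3.84 to 5.26 and 2.04 to 3.08 FPKM. Acvrl1, an endothelial receptor, was at 0.73 and 0.47 FPKM in A and 1.60 and 1.64 in B, and Acvr1c had a mean of 0.010 FPKM.

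Bmpr2, the type II receptor for BMPs, led its class with 28.2 and 22.0 FPKM in A and 16.5 and 13.5 in B (20.0 ± 7.2), lower in B by 0.70 on the log2 scale. Acvr2a, shared by activins and BMPs, followed with 8.06, 7.99, 5.14 and 5.26 FPKM. The libraries of A exceeded those of B for both genes, and neither difference reached 2-fold. Acvr2b varied between 2.56 and 3.13 FPKM with overlap of the replicates.

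Tgfbr2, the type II receptor for TGF-beta, lies at chr8:124312829-124398864 on the minus strand. It measured 1.10 and 0.97 FPKM in A and 3.68 and 5.62 in B (2.84 ± 2.55), higher in B by 1.45 on the log2 scale. Tgfbr3, the co-receptor betaglycan, which presents TGF-beta2 to the receptors and binds inhibin, gave 0.94, 0.71, 1.78 and 5.73 FPKM (2.29 ± 2.07), higher in B by 1.25. The libraries of B were above those of A for both genes, and the difference for Tgfbr3 was 0.61 without B2, so that its count too rests on B2. In these replicates the type II receptor gene for BMPs was thus lower in B while that for TGF-beta was higher in B, with the former under the threshold.

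Smad1, Smad2 and Smad4 were close between the replicates. Smad1 gave 27.0, 28.6, 28.6 and 25.6 FPKM (27.4 ± 0.5). Smad4, the common partner, gave 24.2, 21.4, 22.8 and 20.2 FPKM (22.1 ± 0.9). Smad2 gave 13.4, 15.7, 14.5 and 15.2 FPKM (14.7 ± 0.2). Its deposited coverage was low beside its FPKM, at 36.1, 39.6, 39.1 and 11.5, where Smad1 had 657, 650, 696 and 175. The cause was not tested. The replicates overlapped for these 3 genes, and the difference of B from A lay between -0.083 and 0.031 on the log2 scale.

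Smad5 measured 26.8, 23.9, 18.6 and 20.1 FPKM and was lower in B by 0.37, without overlap of the replicates, and it lay under Smad1 in every library although their ranges overlapped. Smad3 measured 9.16, 9.52, 11.3 and 17.3 FPKM and was higher in B by 0.54, also without overlap. Smad9, the third Smad of the BMP arm, had a mean of only 0.43 FPKM. The BMP arm (Smad1, Smad5 and Smad9) accounted for 70.6% and 67.7% of receptor-regulated Smad FPKM in A and 64.8% and 58.8% in B. It was the larger share in every library, and its mean was 69.2% in A and 61.7% in B. These shares take Smad2 at its FPKM, and whether its low coverage means a lower level was not tested.

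The inhibitory Smads lay on opposite sides. Smad6, at chr8:68898291-68966108 on the minus strand, which blocks mainly BMP signals, was at 4.76 and 6.07 FPKM in A and 12.5 and 14.3 in B (9.39 ± 5.62), higher in B by 1.17 on the log2 scale. Smad7, which blocks both arms, was at 11.0, 11.5, 9.07 and 9.05 FPKM (10.2 ± 1.6), lower in B by 0.28 and not counted. Smad7 thus exceeded Smad6 in both libraries of A, and Smad6 exceeded Smad7 in both libraries of B.

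Of the genes matched by name only, Bmp1 was the most abundant member, at rank 556 of all gene names. It encodes a metalloprotease that cuts procollagens and chordin and is no ligand. Its levels were 261 and 161 FPKM in A and 167 and 121 in B (178 ± 47.1), so that the technical libraries of A were farther apart than the means of the replicates, and it overlaps Phyhip on the other strand. Tgfb1i1, for the focal adhesion protein Hic-5, gave 18.3, 18.3, 26.4 and 48.2 FPKM, higher in B by 0.93 and under the threshold. Tgfbrap1, for a receptor-associated protein, gave 9.87, 10.1, 6.88 and 6.69 FPKM.

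The wider pathway was described through a list of 76 names outside the rule, of which 64 were found and 46 reached 1 FPKM. By the rule used for the members 7 of the 46 differed, 6 higher in B and 1 higher in A, beside the same background of 6.15%. Among genes for the release and storage of ligands, Ltbp3, a latent TGF-beta binding protein, was the most abundant at 90.0 to 105 FPKM. Thbs1, an activator of latent TGF-beta, gave 2.28, 1.79, 6.80 and 12.6 FPKM and was higher in B by 1.76 on the log2 scale. Lrrc32, which holds latent TGF-beta at the cell surface, gave 4.18, 4.51, 10.9 and 17.9 FPKM and was higher in B by 1.49. Pcsk6, a protease that processes the ligand precursors, gave 7.86, 8.28, 2.53 and 3.06 FPKM and was lower in B by 1.26.

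Fstl1, a secreted glycoprotein that can bind BMPs, gave 43.1, 44.2, 86.6 and 135 FPKM and was higher in B by 1.29, and by 0.97 without B2, so that its count rests on B2. Nbl1, a BMP antagonist of the DAN family, was the most abundant secreted modulator at 527, 577, 394 and 424 FPKM. Rgma, a BMP co-receptor, was the most abundant co-receptor at 246, 265, 153 and 125 FPKM. Both libraries of A lay above both of B for each gene (differences of -0.43 and -0.88 on the log2 scale). Neither was counted as differing. Inha, the inhibin alpha subunit, led the ligands outside the rule at 3.24 to 5.74 FPKM. Fkbp1a, which keeps type I receptors inactive, led the 15 intracellular regulators at 190 to 275 FPKM, and none of these 15 genes was counted as differing.

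Among 12 genes reported as targets of the pathway, 3 of the 10 that reached 1 FPKM differed, all higher in B, where the background in that direction was 4.58%. Msx1, a homeobox gene of the dorsal midline and mesenchyme, gave 19.8, 20.7, 57.0 and 103 FPKM (difference 1.87). Atoh8, a bHLH factor, gave 4.32, 4.83, 23.0 and 15.5 FPKM (difference 1.84). Ctgf, a matrix protein gene, gave 5.48, 6.13, 19.5 and 37.2 FPKM (difference 2.04). None of the Id genes, whose products hold back bHLH factors and which BMP Smads induce, was counted as differing. Id3 was the most abundant gene of the list at 1111, 1216, 1208 and 1109 FPKM, with overlap of the replicates and a difference of -0.0057. Id1 gave 334, 361, 546 and 324 FPKM and Id2 gave 173, 174, 175 and 121, both with overlap, and Id4 was lower in B by 0.71.

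Markers of other cell types moved between the replicates as well. All 12 mesenchymal and meningeal markers were higher in both libraries of B than in both of A, 11 of them counted as differing where the background over all gene names was 6.15%. Without B2 the count was 8, since Tbx18, Aldh1a2 and Ptgds (0.89, 0.26 and 0.74 above A in B1 on the log2 scale) no longer reached the threshold. Their leading genes were Col3a1, Col1a1 and Col1a2, at 139.9 to 207 FPKM in A and 637 to 841 in B. The choroid plexus and dorsal midline markers summed to 105, 106, 44.2 and 3.87 FPKM, nearly all of it Ttr and Otx2, and Otx2 was listed at 0 in B2. The 7 endothelial markers summed to 1.04, 0.91, 2.13 and 4.68 FPKM and the 7 microglial markers to 0.42, 1.08, 2.59 and 2.78, every gene of both lists with a mean under 1 FPKM.

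The 11 neural progenitor markers that check the labelled cell type were detected in all libraries, from Prom1 at 2.24 to 3.75 FPKM to Fabp7 at 5485 to 18557, with Sox2 at 356 to 592. Nes, Vim and Slc1a3 lay above A in B2 and below the mean of A in B1, and Fabp7 and Hes5 were among those counted as lower in B. The 11 genes summed to 21292, 23374, 10240 and 10964 FPKM, and without Fabp7 the other 10 genes summed to 4492, 4817, 3721 and 5479 FPKM. Vim made the largest part of the latter sum, at 2882, 3171, 2652 and 4458 FPKM. Both libraries of A lay above both of B for 6 of the 11 genes, and no gene showed the reverse. Among these 6 was Sox2, at 558, 592, 406 and 356 FPKM. Markers of neurons summed to 159, 182, 141 and 159 FPKM, mostly Tubb3 at 117, 134, 105 and 118. Of the 6 neuron markers that reached 1 FPKM, 5 were lower in B, 4 of them without overlap, and 1 was higher. Bcl11b, at 2.08, 2.09, 1.15 and 0.052 FPKM, was counted as lower in B. Its difference was -1.04 on the log2 scale, and -0.52 without B2. Markers of astrocytes and oligodendrocytes summed to 874, 860, 1264 and 1375 FPKM. Within the latter list Gfap was at 502, 460, 419 and 904 FPKM and Olig2 at 66.8, 69.3, 103 and 49.7, each with 1 library of B above and 1 below those of A, and only Pdgfra, at 9.50, 9.09, 59.5 and 59.4 FPKM, was counted as differing. The part of these cell types in the differences of Bmp7, Bmp4, Bmp6, Bmp2, Tgfbr2, Tgfbr3 and Smad6 was not tested.

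**Figure D3:**
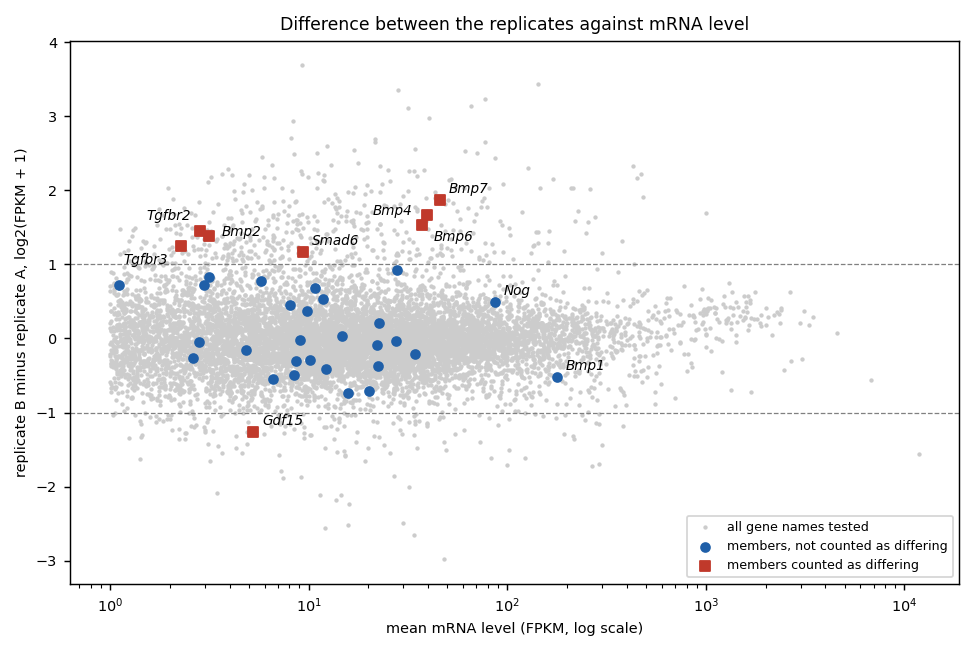
Difference of B from A in log2(FPKM + 1) against the mean FPKM (log axis) for 10481 gene names (grey) and the 36 members above 1 FPKM (blue; red squares where counted as differing); dashed lines mark a difference of 1. Bmp7, Bmp4 and Bmp6 lie together above the line at 37.4 to 45.6 FPKM, and Bmp2, Tgfbr2 and Tgfbr3 above it at 2.29 to 3.15 FPKM.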

How the data were processed

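PolyA RNA was sequenced in 2 biological replicates with 2 technical libraries each, grouped by the sample labels. The authors aligned reads to rn6 with STAR and deposited, per gene, coverage, FPKM and TPM in the layout of StringTie, which the labels name with HISAT and cutadapt. Their methods name Rsubread among the tools behind FPKM. Tool versions are not given in the sources used here. The deposited FPKM values, scaled for transcript length and depth, were the measure. The TPM values, made by the authors, were an alternative, and the deposited coverage signal, not scaled for depth, gave relative depth. Total reads, and so counting errors, are unknown.

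Rows that share a gene name were added together. Technical libraries were averaged within a replicate, and mean and SD are over n = 2 replicates. The difference of B from A was the difference of mean log2(FPKM + 1), with a pseudocount of 1. The labels do not say whether the replicates came from separate litters or cultures. Python 3.11.15, pandas 2.3.3 and numpy 2.4.6 were used, and the rule for differences was tested on simulated data. Values are given for each member that reached a mean of 1 FPKM, and for the pathway list the most abundant gene of each class, each gene counted as differing, and Id1 to Id4. The members and lists were chosen with earlier results of these data known. Values of a few single genes are not reported here.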

Additional observations from a re-analysis of the deposited data

Results flagged for a closer look

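In 48 quantities, each with a value in 4 libraries, Dixon's ratio was used to look for a library far from the other 3, and 6 stood out, 5 of them in B2. Chance flags about 1 in 20 such groups, and the libraries form technical pairs, so the groups are not 4 independent samples. B2 was far above the rest for Bmp6, at 93.3 FPKM, and for Nog, at 163 FPKM. It was likewise far above them for the summed secreted antagonists, at 181 FPKM, of which Nog is the largest part, and for the summed type I receptors, at 56.2 FPKM. Its coverage per FPKM, 6.83, was far below the rest. Acvr1b was lowest in B1, at 3.84 FPKM.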

How the results depend on the processing

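No paired analysis was possible because all RNA-seq libraries are of a single group. Of 393 alternatives, 365 kept their call or stayed within the limits set. The summed level of every role stayed within them without replicate A and without replicate B. For BMP ligands this held at 206 and 57.5 FPKM, beside 132 with both replicates. For these sums the count is therefore no evidence of stability. Of 288 alternatives for single members, 280 kept the call of the member. The sign changed in 15, over 7 members that were not counted (Tgfbr1, Acvr1b, Acvr2b, Smad1, Smad2, Smad4 and Nog), of which Nog moved farthest, from 0.49 to -0.32 without library B2. Bmp6 (0.59) and Tgfbr3 (0.61) fell under the threshold without library B2. Tgfb3 (1.02), Bmp5 (1.16), Nog (1.31) and Tgfb1i1 (1.35) passed it without library B1, and Acvrl1 (1.32) and Fst (1.08) with a pseudocount of 0.1.

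The 8 differing members became 3 where a mean of 10 FPKM was asked, 16 at a log2 difference of at least 0.58, 12 without library B1 and 6 without library B2. The 7 differing pathway genes numbered 4, 12, 11 and 7 under the same settings, and the last 7 share 6 genes with the first, with Fstl1 (0.97) lost and Ltbp1 (-1.09) gained. Over all gene names the count of 645 became 891 without library B1 and 573 without library B2, 894 with a pseudocount of 0.1, 329 where a mean of 10 FPKM was asked and 1732 at a log2 difference of at least 0.58. Members at or above the threshold numbered 18 at 10 FPKM in place of 36 at 1 FPKM. The median member was at 5.03 to 5.14 FPKM with 1 replicate left out. FPKM values summed to 570128 to 611912 per library over all gene names, less than the sum to which TPM values are scaled. TPM values are therefore larger than FPKM in these libraries, and in TPM the median member was at 8.91. In TPM the summed levels were 37.4 for TGF-beta ligands, 27.0 for activin and inhibin subunits, 88.4 for GDF ligands, 81.2 for type I receptors, 54.5 for type II receptors, 84.4 for Smads of the BMP arm, 44.4 for Smads of the TGF-beta arm, 37.2 for Smad4, 32.7 for inhibitory Smads, 169 for secreted antagonists and 361 for genes matched by name only. Averaging FPKM within replicates before the log, an alternative chosen after seeing the data, left the same 8 members. The marker counts without B2 and the marker sum without Fabp7 were likewise chosen after seeing the data. With 2 replicates the spread is known only roughly, and the low depth of B2 limits its values for genes near 1 FPKM. The cause of the changes was not tested.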
